A study of Mus musculus with 312 samples.

Results

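The 10 genes described here encode the latent TGF-beta binding proteins (Ltbp1, Ltbp2, Ltbp3 and Ltbp4), the TGF-beta ligands (Tgfb1, Tgfb2 and Tgfb3) and the TGF-beta receptors (Tgfbr1, Tgfbr2 and Tgfbr3). They were listed by symbol, matched through the Entrez gene identifier, and are 10 of 25136 genes in the counts used. Their RNA was measured in single mammary gland cells of FVB/NJ mice that were sorted as basal epithelium. The Fluidigm C1 held each cell in its own chamber, where cDNA was made. The 3 groups were adult cells whose title carries the mark (2), adult cells without that mark, and cells from pregnant mice. All were untreated, and the labels give their age as adult or pregnancy only, with no day of pregnancy and no animal. The labels do not explain the mark (2). Pregnancy titles have a single form, so a difference of stage cannot be told apart from one of capture run. The study speaks of total epithelium for pregnancy on the C1, and counts more retained cells there than the 75 pregnancy cells here. These are thus not the full set that it describes. The labels of the cells here give basal, and basal identity was therefore checked against markers. The 10 genes were chosen by family, with the mean CPM of Ltbp2 in the adult and pregnancy cells already known, so the values below describe these cells and test nothing.

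TGF-beta is secreted in a latent form, folded inside its own propeptide. Ltbp1, Ltbp3 and Ltbp4 bind this latent complex covalently and store it in the extracellular matrix, whereas Ltbp2 does not bind latent TGF-beta and associates with fibrillin microfibrils. Integrins and thrombospondin-1 are known to release the active ligand, which binds Tgfbr2. Tgfbr2 then phosphorylates Tgfbr1, and Tgfbr1 phosphorylates Smad2 and Smad3. Tgfbr3, also called betaglycan, is a co-receptor that presents ligand, TGF-beta2 in particular, to Tgfbr2. In the mammary gland TGF-beta is known as a brake on the growth of ducts.

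Of 312 cells, 210 had at least 50000 read pairs assigned to genes and at least 1000 detected genes, comprising 81 of 112 adult (2) cells, 58 of 125 unmarked adult cells and 71 of 75 pregnancy cells. Assigned reads per retained cell ranged from 51464 to 405910. At equal depth, after each cell was thinned at random to 50000 reads, the median number of detected genes was 2311 in adult (2), 2212.5 in unmarked adult and 3196 in pregnancy cells. At least 6 of 11 core basal markers (Krt5, Krt14, Krt17, smooth muscle genes, Trp63 and Cxcl14) reached 100 CPM in 76 of 81, 51 of 58 and 70 of 71 cells. By these markers and those of 5 other lineages, 6 adult (2), 10 unmarked adult and 4 pregnancy cells stood apart from basal cells, and values without them are given where they bear on a result. At least 3 genes at 100 CPM were found in 0, 3 and 3 cells for fibroblast markers, 2, 0 and 0 for pericyte, 0, 2 and 0 for endothelial, 1, 0 and 0 for immune and 0, 1 and 0 for Schwann cell markers. At least 3 of 10 luminal markers were found in 6, 6 and 3 cells. CPM denotes counts per 1e+06 assigned reads of a cell. Where 3 values follow each other, they are for adult (2), unmarked adult and pregnancy cells in this order. Where 2 log2 ratios do, they are for pregnancy over adult (2) and over unmarked adult cells. Each group is 1 sample, since no animals are named, and all intervals are 95% intervals. Those of shares and medians treat the cells of a group as independent draws. Those of summed reads treat reads as independent counts, although PCR copies were counted separately. None of them covers differences between animals or capture runs.

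The 10 genes lie on 8 chromosomes of the mouse genome build GRCm38. Ltbp2 (Entrez 16997) lies at chr12:84783212-84876558 on the minus strand, and Tgfb3 (21809) on the same chromosome and strand at chr12:86056743-86079041. Ltbp4 (108075) and Tgfb1 (21803) share chromosome 7, at chr7:27305140-27339720 (minus) and chr7:25687002-25705077 (plus). Ltbp1 (268977) lies at chr17:75005480-75392512 (plus) and Ltbp3 (16998) at chr19:5740900-5758536 (plus). Tgfb2 (21808) lies at chr1:186622787-186709697 (minus) and Tgfbr1 (21812) at chr4:47353222-47414926 (plus). Tgfbr2 (21813) lies at chr9:116087695-116175363 (minus) and Tgfbr3 (21814) at chr5:107106567-107289629 (minus). Reads were counted over the exons of each gene. In the GENCODE annotation, another gene on the opposite strand overlaps 9.34% of the exon bases of Ltbp2 (D030025P21Rik). The overlap is 2.14% for Tgfb2 and 2.01% for Ltbp3. Tgfb3 is overlapped by 2 such genes, Gm37804 and Gm48008, and the larger of these overlaps covers 7.60% of its exon bases. A gene on the same strand, Gm43422, overlaps 4.54% of the exon bases of Tgfbr3. These shares are of GENCODE exons, whereas reads were counted over RefSeq exons, which for Ltbp2 span 6603 bases against 8184. Use of strand in the counting was not stated, and whether the overlapping genes were counted was not checked. Whether reads in these stretches belong to 1 gene is thus not known.

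Promoter windows are shown for Ltbp2 and Tgfbr2, because these were the pair of genes that lay beyond a 2-fold difference between pregnancy and both adult sets, in opposite directions. Each line gives the 250 bases before a RefSeq start (GRCm38.p6), read 5′ to 3′ on the strand of the gene. Capitals mark the Smad-binding letters CAGAC or their reverse complement GTCTG, the GC box GGGCGG or its reverse complement CCGCCC, and the A/T-rich letters ATAAAA.
Ltbp2, chr12:84876492-84876741 (minus): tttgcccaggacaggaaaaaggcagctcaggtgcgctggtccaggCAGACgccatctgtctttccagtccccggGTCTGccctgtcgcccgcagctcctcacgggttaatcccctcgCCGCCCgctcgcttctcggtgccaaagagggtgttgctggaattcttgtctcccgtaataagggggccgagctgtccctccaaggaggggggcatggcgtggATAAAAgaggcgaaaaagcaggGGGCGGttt
Tgfbr2, chr9:116175364-116175613 (minus): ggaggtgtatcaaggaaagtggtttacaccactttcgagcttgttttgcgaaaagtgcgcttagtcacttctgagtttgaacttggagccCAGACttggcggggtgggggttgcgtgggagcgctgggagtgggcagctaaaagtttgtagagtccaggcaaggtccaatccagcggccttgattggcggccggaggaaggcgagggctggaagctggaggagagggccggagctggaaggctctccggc
In the Ltbp2 window, ATAAAA began 31 bases before the start, GGGCGG began 9 bases before it and CCGCCC 133 bases before it, and CAGAC and GTCTG began 205 and 176 bases before it. The Tgfbr2 window held CAGAC, 160 bases before the start, and none of the other letters. Searched on both strands, CAGAC was present in 42.2%, GGGCGG in 32.7% and ATAAAA in 17% of all 32851 RefSeq promoter windows of this length. Neither window held TATAAA (12.4% of windows), the AP-1 letters TGANTCA (6.75%) or the CArG box bound by serum response factor (1.47%). These matches describe the letters of each window only. The annotated Ltbp2 gene extends past the start used for its window, so the last bases of that window lie inside the gene. RefSeq windows were matched for 8 of the 10 genes.

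The latent TGF-beta binding proteins were examined first. Ltbp2, the microfibril-associated member, was the most variable of the 4 between groups. Its CPM in adult (2) cells ran from 0 to 10628 with a median of 530.5 (interval 252.5 to 790.6). In unmarked adult cells it ran from 0 to 1531 with a median of 29.1 (interval 0 to 166.5). In pregnancy cells it ran from 0 to 338 with a median of 0. The groups overlapped at low values, but 48 of 81 adult (2) cells and 16 of 58 unmarked adult cells lay above the highest pregnancy cell, and no pregnancy cell reached the median of adult (2) cells. Ltbp2 had no read in 6 of 81, 23 of 58 and 45 of 71 cells. Its summed reads were 14191 (interval 13958.5 to 14426.4), 1423 (1350 to 1499) and 277 (245 to 312).

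The mean of Ltbp2 was 957.7 CPM in adult (2), 238.3 CPM in unmarked adult and 17.0 CPM in pregnancy cells. On the log2(mean CPM + 10) scale, pregnancy was lower by a log2 ratio of -5.16 against adult (2) cells and -3.20 against unmarked adult cells. Ranked from the lowest ratio, Ltbp2 was gene 4 of 9230 in the first comparison and gene 54 of 9122 in the second. The adult sets themselves differed by -1.96 (unmarked over (2)). The highest single cell, adult cell 50, held 13.7% of the adult (2) sum, and without it the mean there was 836.8 CPM. Pregnancy cell 55 held 27.9% of the pregnancy sum. Without the cells that stood apart from basal, the means were 1029, 274.8 and 17.6 CPM. The limit of 2-fold against both adult sets was passed under each alternative tried.

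Detection gave the same order for Ltbp2. After thinning, at least 1 read of it was present in 87.7% of adult (2) cells (interval 78.5 to 93.9%), 55.2% of unmarked adult cells (41.5 to 68.3%) and 25.4% of pregnancy cells (15.8 to 37.1%). None of these intervals overlapped. Among 9882 genes whose mean reached 10 CPM in any group, the pregnancy interval lay below both adult intervals for 0.243% of genes, and above both for 9.94%. The unmarked adult interval lay below that of adult (2) cells for 0.435% of genes and above it for 0.941%. The median gene was detected in 5.83 percentage points more pregnancy cells than adult (2) cells, so the lower detection of Ltbp2 went against the direction of most genes. At 100 CPM the shares were 77.8%, 37.9% and 4.23%.

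**Figure D1:**
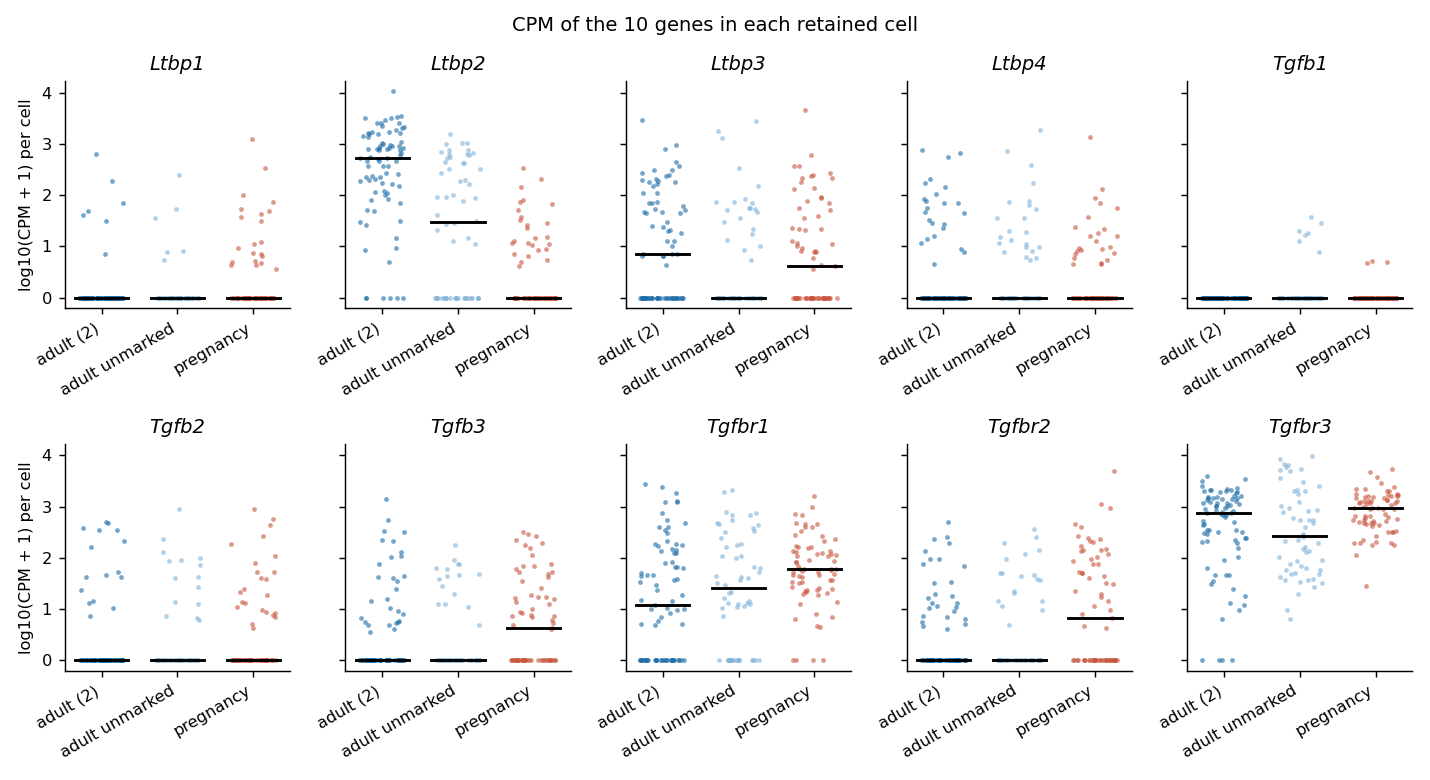
Each point is 1 retained cell (81 adult (2), 58 adult unmarked, 71 pregnancy), the y axis is log10(CPM + 1), and black lines are medians. Ltbp2 has medians of 530.5, 29.1 and 0 CPM from left to right, Tgfbr3 is high in all 3 groups, and most cells have no read of Ltbp1, Tgfb1 or Tgfb2.

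Ltbp3, which pairs with latent TGF-beta and is best known from bone and teeth, had similar means in the 3 groups at 112.8, 122.0 and 117.4 CPM. Its medians were low, at 6.01, 0 and 3.16 CPM, and it was detected after thinning in 45.7% (interval 34.6 to 57.1%), 31.0% (19.5 to 44.5%) and 38.0% (26.8 to 50.3%) of cells. The pregnancy mean rested on 1 cell: pregnancy cell 33 reached 4674 CPM and held 56.1% of the pregnancy sum. Without cell 33, the pregnancy mean was 52.3 CPM, with log2 ratios of -0.98 against adult (2) and -1.08 against unmarked adult cells instead of 0.05 and -0.05. Adult cells 76 and 144 held 32.7% and 40.2% of the sums of their sets, and with the highest cell of each group left out the ratios were -0.48 and -0.44.

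Ltbp4, a binding protein of elastic fibres that prefers TGF-beta1, had means of 39.4, 62.9 and 26.8 CPM and medians of 0. It was detected in 25.9%, 25.9% and 16.9% of cells. Pregnancy cell 33 was again the highest, with 1349 CPM and 70.9% of the pregnancy sum. Cell 33 had 223813 assigned reads, 4608 genes and 10 of 11 core basal markers. Without it, mean Ltbp4 in pregnancy was 7.92 CPM, and the log2 ratios moved from -0.43 and -0.99 to -1.46 and -2.02. In unmarked adult cells, cell 220 held 51.6% of Ltbp4. With the highest cell of each group left out, the ratios were -1.18 and -1.19. Among cells with at least 100000 reads and 1500 genes, the ratio against unmarked adult cells was 1.58, of the opposite sign.

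Ltbp1, the founding member of the family, was the lowest of the 4 in adult cells per length. Its means were 12.4, 6.02 and 28.7 CPM, and it was detected in 7.41%, 5.17% and 14.1% of cells. Adult cells 99 and 156 and pregnancy cell 65 held 62.3%, 69.6% and 61.2% of the sums of their groups, so each mean was mostly the value of 1 cell. Cell 156 stood apart from basal cells, and without the cells that did so the means were 12.9, 0.29 and 29.7 CPM. The log2 ratios of pregnancy were 0.79 and 1.27, and 0.53 and 0.84 with the highest cell of each group left out.

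Scaled by exon length, the balance within the family differed between the groups. Ltbp2 made up 82.7% of the summed RPKM (CPM per kilobase of exon) of the 4 genes in adult (2) cells, 50.4% in unmarked adult cells and 7.70% in pregnancy cells. Ltbp3 made up 12.4%, 32.8% and 67.5%. The family sum was 175.3, 71.6 and 33.5 RPKM. Cell by cell, Ltbp2 was the highest of the 4 per length in 68 of 78 adult (2) cells with any Ltbp read, in 28 of 45 unmarked adult cells and in 15 of 63 pregnancy cells. Ltbp3 led in 4, 8 and 28 of these cells. With the highest cell of each gene left out, Ltbp3 still made up 68.2% and Ltbp2 12.8% of the pregnancy sum. At least 2 Ltbp genes were detected after thinning in 63.0% of adult (2) cells (interval 51.5 to 73.4%), 34.5% of unmarked adult cells (22.5 to 48.1%) and 21.1% of pregnancy cells (12.3 to 32.4%).

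**Figure D2:**
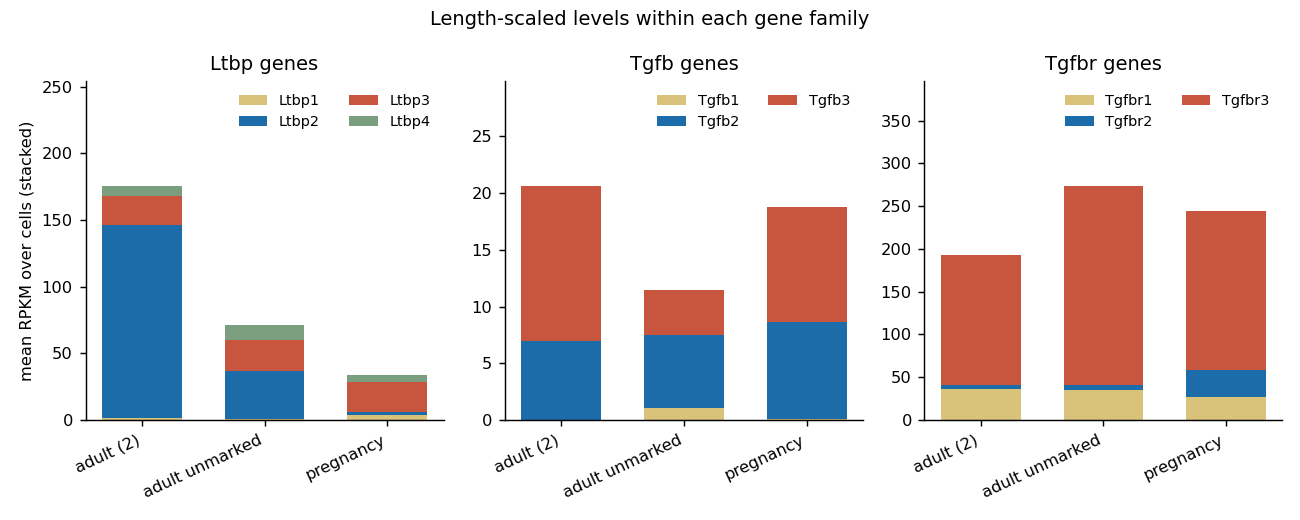
Stacked bars give the mean RPKM over cells (y axis, linear) of each gene within the Ltbp, Tgfb and Tgfbr families in the 3 groups. The Ltbp stack is 175.3, 71.6 and 33.5 RPKM high from left to right and differs mostly in its Ltbp2 segment, while Tgfbr3 is the largest segment of the receptor stack in every group.

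The ligands were sparse. Tgfb1, the most widely expressed TGF-beta in other tissues, had 0 reads in 81 adult (2) cells, which allows a share of cells with a read of up to 3.70%. It had 10 reads in 7 of 58 unmarked adult cells and 3 reads in 3 of 71 pregnancy cells. Its highest value in any cell was 35.7 CPM (adult cell 171), and its mean of 2.29 CPM in unmarked adult cells kept it below the 10 CPM required for a ratio. Pregnancy cell 45, which held 1 of the 3 reads, had 9378 detected genes.

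Tgfb2, the isoform that depends most on betaglycan, had means of 32.9, 30.1 and 40.4 CPM, and medians of 0 in all groups. Its detection of 14.8% (interval 7.90 to 24.4%), 19.0% (9.87 to 31.4%) and 23.9% (14.6 to 35.5%) did not separate the groups. Few cells carried it at a high level: adult cell 194 held 51.3% of the unmarked adult sum and pregnancy cell 23 held 30.7% of the pregnancy sum. The log2 ratios of pregnancy were 0.23 and 0.33.

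Tgfb3 was detected in 23.5%, 24.1% and 32.4% of cells, with overlapping intervals. Its means were 46.2, 13.6 and 34.3 CPM. The adult sets differed from each other by a log2 ratio of -1.25 (unmarked over (2)), and the ratios of pregnancy were -0.35 and 0.91. Adult cell 24, at 1433 CPM, held 38.3% of the adult (2) sum, and with the highest cell of each group left out the mean in adult (2) cells was 28.9 CPM. The adult sets then differed by -0.90, within 2-fold, and the ratios of pregnancy were 0.04 and 0.95. At least 1 ligand gene was detected in 34.6%, 39.7% and 52.1% of cells. Per length, Tgfb3 made up 66.3%, 35.1% and 54.0% of the ligand sum, which was 20.6, 11.5 and 18.7 RPKM, far below the Ltbp and receptor sums in the adult sets.

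Among the receptors, Tgfbr3 (betaglycan) was the highest per length in every group, with means of 152.4, 232.9 and 185.8 RPKM. In CPM it ran from 0 to 3949 with a median of 737.1 (interval 356.3 to 1050) in adult (2) cells, and from 5.29 to 9674 with a median of 266.2 (131.1 to 601.6) in unmarked adult cells. In pregnancy cells it ran from 27.3 to 5507 with a median of 928.2 (606.9 to 1248). The ranges overlapped throughout. The pregnancy median lay above the interval of the unmarked adult median, although the unmarked adult mean was the highest of the 3 (922.8, 1410 and 1124 CPM), with 8 unmarked adult cells above the highest adult (2) cell and 5 above the highest pregnancy cell. The highest adult (2) cell, 102, and unmarked adult cell 157, at 6049 CPM, stood apart from basal cells. Without the cells that stood apart, the means were 901.6, 1439 and 1172 CPM. Tgfbr3 was detected in 92.6%, 96.6% and 100% of cells after thinning, and at 100 CPM in 79.0%, 65.5% and 98.6%. The log2 ratios of its means were 0.28 and -0.32.

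Tgfbr1, the signalling type I receptor ALK5, had its lowest mean but its highest detection in pregnancy cells. Its means were 201.9, 198.1 and 151.6 CPM, with log2 ratios of -0.39 and -0.37 for pregnancy. Its medians were 10.8 (interval 4.08 to 44.2), 24.4 (11.5 to 63.4) and 59.0 CPM (41.0 to 105.8). It was detected in 56.8% (interval 45.3 to 67.8%), 63.8% (50.1 to 76.0%) and 88.7% (79.0 to 95.0%) of cells. The highest cells reached 2715, 2125 and 1608 CPM, so adult cells held both more cells at 0 (30 of 81 and 17 of 58, against 4 of 71) and the highest single values. Adult (2) cell 95, the highest, and cell 19, at 1217 CPM, stood apart from basal cells. Without the cells that stood apart, the means were 165.0, 205.4 and 150.9 CPM, so the order of the adult sets changed and pregnancy stayed lowest. The pregnancy detection interval lay above both adult intervals, as it did for 9.94% of genes.

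Tgfbr2, the ligand-binding type II receptor, was at least 2-fold higher in pregnancy than in both adult sets. In adult (2) cells it ran from 0 to 490.4 CPM, in unmarked adult cells from 0 to 362.7 CPM, both with medians of 0. In pregnancy cells it ran from 0 to 4965 CPM with a median of 5.77 (interval 0 to 31.2). The groups overlapped widely, since 33 of 71 pregnancy cells had no read and 3 and 5 pregnancy cells lay above the highest adult (2) and unmarked adult cells. The highest adult (2) cell, 104, had 4 pericyte markers at 100 CPM and held 26.7% of the adult (2) sum. Unmarked adult cell 151, the highest of its set, had 6 fibroblast markers, and both cells stood apart from basal cells. The means of Tgfbr2 were 22.7, 26.1 and 151.4 CPM, giving log2 ratios of 2.30 and 2.16. Pregnancy cell 70 held 46.2% of the pregnancy sum. Without it, the mean was 82.6 CPM, and without cells 70 and 44 it was 67.5 CPM, with ratios of 1.25 and 1.10. Cell 70 did not stand apart from basal cells, whereas cells 38, 44, 62 and 71 did, with 270.9, 1127, 144.9 and 201.9 CPM. Tgfbr2 was detected in 19.8% (interval 11.7 to 30.1%), 29.3% (18.1 to 42.7%) and 42.3% (30.6 to 54.6%) of cells, so the pregnancy interval overlapped that of the unmarked adult cells.

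The summed level of fibroblast markers also differed between the groups. The summed CPM of 8 fibroblast genes ran from 0 to 3262 with a median of 0 in adult (2) cells, from 0 to 38176 with a median of 27.7 in unmarked adult cells, and from 55.2 to 5782 with a median of 561.5 in pregnancy cells. Nearly all of the pregnancy sum was Dcn (decorin, a proteoglycan that binds TGF-beta), which reached 100 CPM in 66 of 71 pregnancy cells. Without Dcn the medians were 0, 0 and 4.10 CPM, and Col1a1, Col1a2, Lum, Pi16 and Dpt each reached 100 CPM in at most 1 pregnancy cell, and Col3a1 and Pdgfra in 3. Dcn (106.7, 677.1 and 1113 CPM) and Pdgfra (0.057, 12.0 and 60.0 CPM) had higher means in pregnancy than in both adult sets. The other 6 genes had lower means in pregnancy than in unmarked adult cells and higher means than in adult (2) cells. Unmarked adult cells 151 and 157, with 6 fibroblast markers each, stood apart from basal cells. Tgfbr2 and the fibroblast sum had Spearman correlations of 0.26 over 81 adult (2), 0.38 over 58 unmarked adult and 0.08 over 71 pregnancy cells, and of 0.32, 0.27 and 0.17 without Dcn. With the summed pericyte markers they were 0.26, 0.28 and 0.17. The part of fibroblast RNA in the Tgfbr2 values was not tested. In the 67 pregnancy cells that did not stand apart, mean Tgfbr2 was 134.4 CPM, against 12.3 and 16.8 CPM in the adult sets.

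The receptors were also counted together in the same cells. Tgfbr1 and Tgfbr2 were both detected after thinning in 7 of 81 adult (2) cells (8.64%, interval 3.55 to 17.0%), 12 of 58 unmarked adult cells (20.7%, 11.2 to 33.4%) and 28 of 71 pregnancy cells (39.4%, 28.0 to 51.7%). The intervals of adult (2) and pregnancy did not overlap, and those of unmarked adult and pregnancy did. More genes of any kind were detected per pregnancy cell at this depth, and the part of this in the joint count was not tested. Tgfbr3 was detected without Tgfbr2 in 75.3%, 67.2% and 57.7% of cells. Per length, Tgfbr2 was 2.45%, 1.99% and 13.0% of the receptor sum, and 8.00% in pregnancy with the highest cell of each gene left out.

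**Figure D3:**
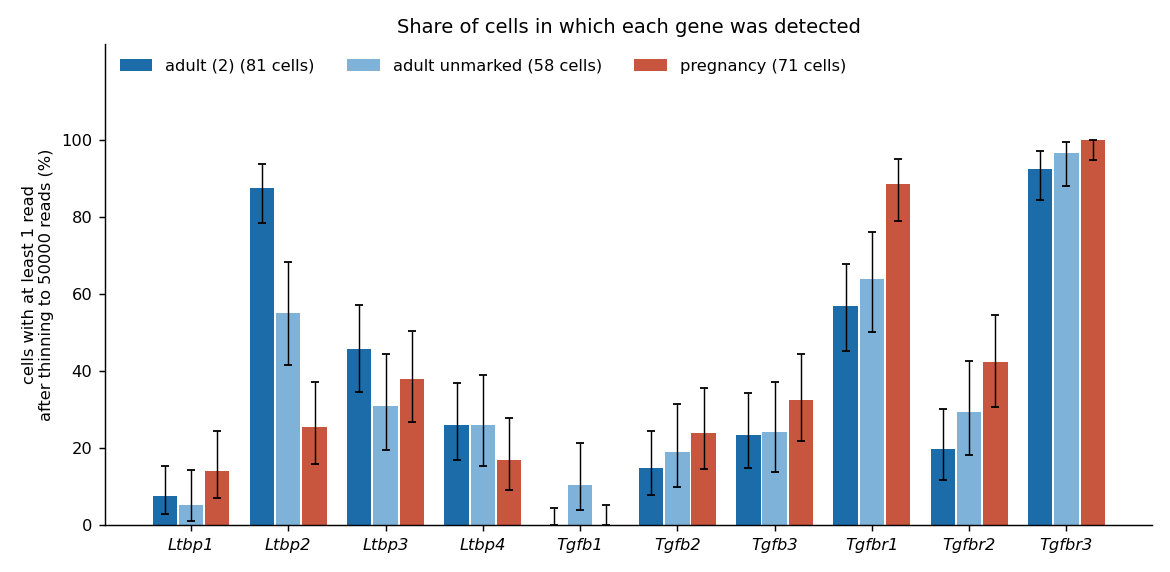
Bars give the share of cells (%, y axis) with at least 1 read of each gene after thinning to 50000 reads, and error bars are exact Clopper-Pearson 95% intervals. Ltbp2 steps down from 87.7% to 55.2% and 25.4%, while Tgfbr1 reaches 88.7% and Tgfbr2 42.3% in pregnancy.

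Of the 10 genes, 9 passed the filter of a 10 CPM mean and Tgfb1 did not. Of these 9, 1 (Ltbp2) was at least 2-fold lower in pregnancy than in both adult sets, as were 4.44% of all genes passing the filter, and 1 (Tgfbr2) was at least 2-fold higher, as were 9.26%. The higher count was 0 with a pseudocount of 100 CPM or as a difference of the mean log2(CPM + 10), and 2, with Ltbp1, with a pseudocount of 1 CPM. Of all genes, 0.678%, 5.59% and 14.1% were higher under these settings, in this order. The lower count was 2, with Ltbp4, without pregnancy cell 33, where 4.46% of all genes were lower. Against adult (2) cells alone the counts were 1 lower and 1 higher, with 15.3% and 18% of all genes, and against unmarked adult cells 1 lower and 2 higher (Ltbp1 and Tgfbr2), with 16.8% and 21.5%. The median log2 ratio of the 9 genes was 0.05 and -0.05, and that of all genes 0.06 and 0.11. Between the adult sets, 2 of the 9 (Ltbp2 and Tgfb3) differed at least 2-fold, both lower in unmarked cells. Of all genes, 36.5% differed, 19.1% lower and 17.4% higher. Both pregnancy comparisons use the same pregnancy cells.

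**Figure D4:**
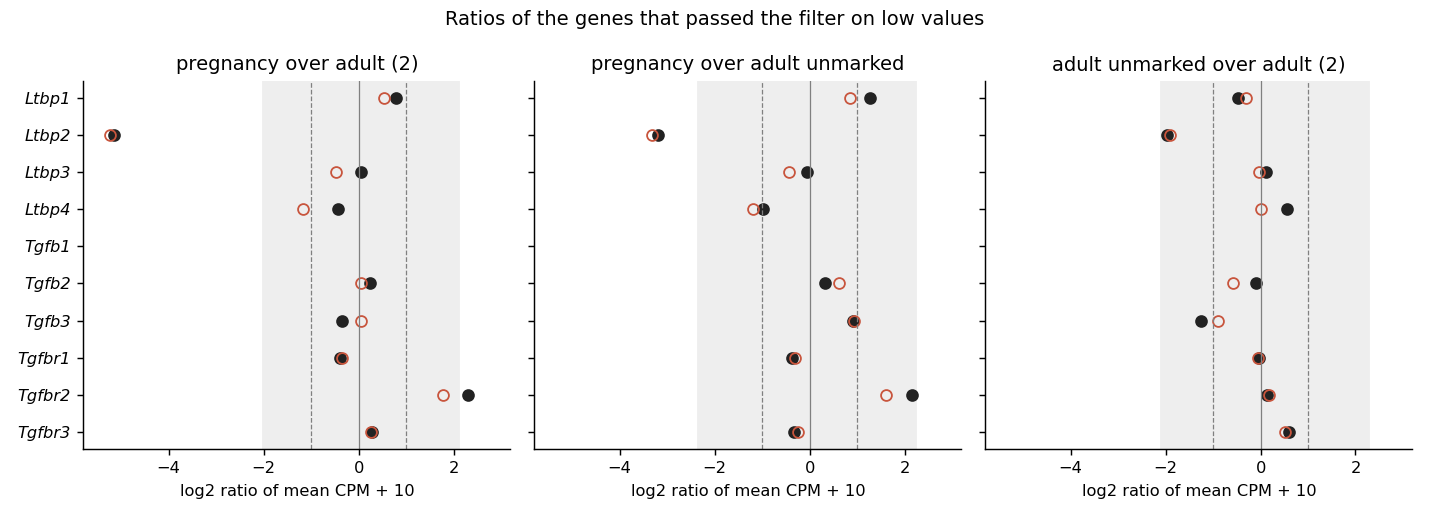
Filled points are log2 ratios of mean CPM + 10 (x axis) for each gene that passed the filter, open points are the ratios without the highest cell of each group, the grey band holds the middle 95% of all genes, and dashed lines mark 2-fold. Ltbp2 at -5.16 and -3.20 lies left of the band in both pregnancy comparisons, and Tgfbr2 moves from 2.30 and 2.16 to 1.79 and 1.62 when the highest cells are left out.

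The other genes of the pathway were taken from 6 lists with 70 genes, of which 56 passed the filter. Against both adult sets, 5 were at least 2-fold lower and 5 at least 2-fold higher in pregnancy, and 46 were neither. Of all 9882 genes, 4.44% were lower and 9.26% higher by the same limit, and the counts of each list below stand against these shares. The median log2 ratio over these 56 genes was 0.21 against adult (2) and 0.01 against unmarked adult cells, and that of all 9882 genes was 0.04 and 0.09. Among 13 measured genes of latent TGF-beta activation, Thbs1 (thrombospondin-1) was higher, with means of 1061, 1478 and 5186 CPM and medians of 560.6, 525.2 and 4222 CPM. Its log2 ratios were 2.28 and 1.80, and it was detected in all 71 pregnancy cells after thinning. Itgb5, a partner of the alpha-v integrin chain, was lower, with means of 110.9, 155.2 and 30.2 CPM and log2 ratios of -1.59 and -2.04. Its medians were 0 in all groups, and it was detected in 38.3%, 25.9% and 21.1% of cells. Adult cell 150 and pregnancy cell 57 held 55.1% and 46.5% of the sums of their groups. Without the highest cells the Itgb5 ratios were -1.96 and -1.62. Plat, tissue plasminogen activator, was lower as well, with 157.8, 44.2 and 12.8 CPM and log2 ratios of -2.88 and -1.25. Its medians were also 0 in all groups. Adult cells 41 and 150 and pregnancy cell 44 held 35.5%, 32.8% and 48.2% of the sums of their groups. Without the highest cells the Plat ratios were -2.76 and -1.27. The other 10 measured genes of that list, Furin and Itgav among them, were not beyond 2-fold in 1 direction against both sets.

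Of 10 measured genes known to respond to TGF-beta, 3 were higher and 0 lower, against 9.26% and 4.44% of all genes. Ccn2 (connective tissue growth factor) had means of 192.1, 113.6 and 1192 CPM, medians of 15.2, 16.7 and 669.0 CPM, and log2 ratios of 2.57 and 3.28. Ccn1, a matricellular protein of the same family, had means of 133.5, 258.1 and 728.4 CPM and log2 ratios of 2.36 and 1.46. Both genes also respond to other signals. Fmod (fibromodulin, a matrix proteoglycan that binds TGF-beta) was the 1 higher gene among 5 measured related ligands and antagonists. Its means were 104.2, 85.1 and 588.3 CPM, with log2 ratios of 2.39 and 2.65. Dcn, of the same list, had log2 ratios of 3.27 and 0.71. Adult cells 99 and 157 held 37.7% and 59.1% of the Dcn sums of their sets, and cell 157 stood apart from basal cells. Without the highest cells the Dcn ratios were 3.77 and 1.86, beyond 2-fold against both sets.

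None of 10 measured Smads and Smad regulators was beyond 2-fold against both sets. Of 10 measured genes of the latent complex and microfibrils, 1 was lower. This was Mfap2, a microfibril protein, at 33.7, 72.2 and 2.23 CPM, and its value in unmarked adult cells came to 98.3% from adult cell 151. Without the highest cells its ratios were -1.42 and -0.04. Of 8 measured related receptors 2 were lower, Nrp1 and Bmpr2, against 4.44% of all genes, and neither stayed beyond 2-fold against both sets without the highest cells. Nrp1, a co-receptor of semaphorins and VEGF that also binds TGF-beta, had 16.6, 70.5 and 1.29 CPM, with log2 ratios of -1.23 and -2.83 that became -0.25 and -2.05 without the highest cells. Bmpr2, the type II BMP receptor, had log2 ratios of -1.03 and -1.09, and of -0.82 and -0.44 without the highest cells. It stayed under 50 CPM in all groups and was named after its values were seen. Fbn1, the fibrillin of microfibrils, had means of 206.9, 149.5 and 373.5 CPM and log2 ratios of 0.82 and 1.27. Its medians were 6.20, 4.77 and 119.5 CPM. Adult cells 41 and 151 held 36.8% and 48.3% of the sums of their sets. Without the highest cells the Fbn1 ratios were 1.31 and 1.99, beyond 2-fold against both sets.

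**Figure D5:**
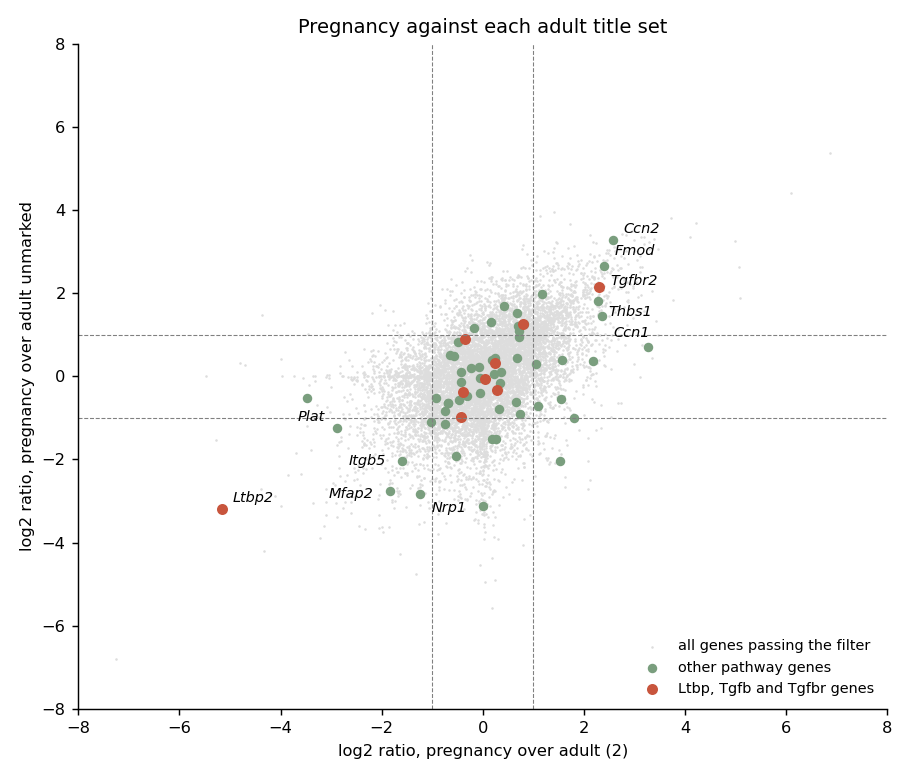
Log2 ratios of mean CPM + 10 in pregnancy over adult (2) (x axis) and over unmarked adult cells (y axis), for all 9882 genes that passed the filter (grey), 56 other pathway genes (green) and 9 Ltbp, Tgfb and Tgfbr genes (red). Both axes use the same pregnancy cells, so points lean along the diagonal, and dashed lines mark 2-fold. Ltbp2 lies alone among the red points at the lower left, and Tgfbr2 lies at the upper right beside Fmod, Thbs1 and Ccn1.

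Across cells of 1 group, correlations between the genes were weak, and they are given as a description over cells that share a source. Ltbp2 and Ltbp3 had a Spearman correlation of 0.40 over 81 adult (2) cells, 0.30 over 58 unmarked adult cells and -0.05 over 71 pregnancy cells. Ltbp2 and Tgfbr3, detected together in 84.0% of adult (2) cells, had a correlation of -0.03 there. Tgfbr1 and Tgfbr2 had correlations of 0.06, 0.11 and 0.15. Ltbp2 had correlations of 0.03, -0.15 and -0.24 with assigned reads and of 0.36, 0.44 and -0.08 with the summed CPM of the core basal markers.

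The genes most like Ltbp2 were sought among 3178 genes detected in at least 25% of adult (2) cells after thinning. The 5 with the largest Spearman correlation over 81 cells were Col17a1 (a hemidesmosomal collagen) at 0.44, Cnn1 (calponin of smooth muscle, 1 of the core basal markers) at 0.43, Slpi (a secreted protease inhibitor) at 0.43, Furin (the protease that cleaves pro-TGF-beta) at 0.43 and Anxa2 (a membrane-binding annexin) at 0.42. The median over all genes compared was 0.05. Over the 58 unmarked adult cells, the values for the same 5 genes were 0.38, 0.19, 0.62, 0.20 and 0.29, and over the 71 pregnancy cells -0.03, -0.02, 0.19, 0.06 and 0.28. For Tgfbr3, the 5 largest values in adult (2) cells, from 0.45 to 0.42, belonged to Adgra3, Bace1, Matr3, Fubp3 and Nufip2. In pregnancy cells, from 0.47 to 0.42 among 4644 genes, they belonged to Nbeal1, Rab42, Pik3ca, Ptpra and Rnft1. No gene was in both lists of 5, taken from 3178 and 4644 genes, and no weight was placed on this. In pregnancy cells the values of the first 5 genes ran from -0.20 to 0.23.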

How the data were processed

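The authors deposited counts, whole numbers of read pairs for every Entrez gene in a cell. Reads had been aligned by them to mm10 with Subread (1.5.0, from the submitters' processing notes) and summarised with featureCounts over built-in RefSeq exons. Without molecular identifiers, PCR copies count separately. Whether strand was used is not stated. A table of the whole series that repeats the same counts was not used here.

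Of 27179 gene IDs, 25275 matched a RefSeq symbol (GRCm38.p6). The other 1904 held 1.66% of reads and were left out with 15 mitochondrial and 124 ribosomal protein genes. Cells with at least 50000 reads in the remaining 25136 genes and at least 1000 of them detected were retained, and no doublet caller was run. No 2 cells had identical counts.

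Each cell is 1 GEO sample and no animals are named, so a group is 1 sample here, and neither tests nor standard errors were computed. Means of CPM weight cells equally. Log2 ratios used a pseudocount of 10 CPM, which understates changes of low genes, and genes whose mean reached 10 CPM in a compared group. A gene counted as beyond 2-fold at a log2 ratio of 1 or more in size. Detection was at least 1 read after thinning without replacement to 50000 reads, or 100 CPM. Intervals for shares are exact Clopper-Pearson, for summed reads exact Poisson and for medians from binomial ranks, at 95%. A share of 0 is given with the limit that 3 counts allow. The ratio script was tested on simulated counts.

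Named genes were the 10 genes, pathway genes beyond 2-fold in 1 direction against both adult sets whose mean reached 50 CPM in the higher group, the 5 genes most correlated with Ltbp2 and with Tgfbr3, and single cells holding over 25% of a group's sum. Fbn1, Dcn, Furin, Itgav, Bmpr2 and the markers were named besides, after their values were seen. A pathway gene that met the rule is not reported here. A cell stood apart from basal with fewer than 6 core basal markers or at least 3 markers of the fibroblast, pericyte, endothelial, immune or Schwann cell lists (8 genes each). The genes, lists and rules were chosen with earlier results of these data known. Python 3.11.15, numpy 2.4.6, pandas 2.3.3 and scipy 1.17.1 were used. Scaling factors of edgeR 4.0.16 (TMM) and DESeq2 1.42.0 served as alternatives on summed reads. No protein sequences were used here.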

Additional observations from a re-analysis of the deposited data

Results flagged for a closer look

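Reads of 9 of the 10 genes were present in the 102 cells that were left out for low depth or few genes, above the limit that a count of 0 allows (2.37 CPM over 1265362 assigned reads). These cells held 348 reads of Ltbp2, 349 of Ltbp3, 33 of Ltbp4, 55 of Tgfb2, 40 of Tgfb3, 255 of Tgfbr1, 28 of Tgfbr2 and 767 of Tgfbr3. Of the 348 Ltbp2 reads, 144 were in 31 adult (2) cells (318.2 CPM of the sum, against 945.0 CPM in the retained cells), 203 in 67 unmarked adult cells (282.2 against 202.5 CPM) and 1 in 4 pregnancy cells. Of the 349 Ltbp3 reads, 288 were in 4 of the left-out adult (2) cells.

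All 21 Tgfb1 reads in the left-out cells were in 7 unmarked adult cells, where they made 29.2 CPM of the sum (Poisson interval 18.1 to 44.6), against 1.42 CPM in the retained unmarked adult cells. The left-out adult (2) cells had 0 reads of Tgfb1, which allows up to 6.63 CPM. Whether these 7 cells are basal was not tested.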

How the results depend on the processing

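Percentages in brackets below are the shares of all genes past the same limit under the same setting. The count of genes at least 2-fold lower in pregnancy than in both adult sets was 1 (Ltbp2, 4.44%). It was 2, with Ltbp4, without the highest cell of each group for that gene (3.04%) and without pregnancy cell 33 (4.46%). The count of genes at least 2-fold higher was 1 (Tgfbr2, 9.26%), and 2 with a pseudocount of 1 CPM (14.1%). It was 0 with a pseudocount of 100 CPM (0.678%) and 0 as a difference of the mean log2(CPM + 10) (5.59%). The count between the adult sets was 2 (Ltbp2 and Tgfb3, 36.5%). It was 1 (Ltbp2) with a pseudocount of 100 CPM (2.81%) and with all cells of at least 10000 reads (33.7%). It was also 1 as a difference of the mean log2(CPM + 10) (1.58%) and without the highest cell of each group (28%). With a minimum mean of 50 CPM it was 1 as well (35.6%). With at least 100000 reads and 1500 genes per cell it was 3 (with Ltbp4, 45.8%). Without the cells that stood apart it was 3 (with Ltbp1, 36.7%). Leaving out pregnancy cells 33, 70 and 44 was chosen after the data were seen.

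Over the 11 alternatives for single ratios, Ltbp2 ranged from -5.73 to -3.18 against adult (2) and from -3.73 to -1.53 against unmarked adult cells, and Tgfbr2 from 1.04 to 2.70 and from 0.90 to 2.49. As a difference of the mean log2(CPM + 10), the ratio of Tgfbr1 was 0.84 and 0.52, opposite in sign to that of its means, and that of Tgfbr3 against unmarked adult cells was 1.19. With at least 100000 reads and 1500 genes per cell, Ltbp4 was 1.58 against unmarked adult cells, again of opposite sign. Under the edgeR TMM and DESeq2 factors Ltbp2 and Tgfbr2 stayed beyond 2-fold. No paired analysis was possible because no test was made and a cell number shared by groups does not name a shared animal. With 1 sample a group, differences between animals, capture runs and stages cannot be told apart. Depth limits what can be said of Tgfb1, Ltbp1 and Tgfb2.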
